A study of Mus musculus with 7 samples.

Results

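The genes of the mitochondrial ribosome were examined in liver ChIP-seq peak lists of 3 nuclear receptors, namely the retinoic acid receptors RARα and RARβ and the retinoid X receptor RXRα. They comprised every protein-coding gene whose symbol begins with Mrpl or Mrps, which gave 78 genes of the 21536 protein-coding genes with a known start and strand. Of these, 49 carry an Mrpl and 29 an Mrps symbol. Because Mrps30 and Mrps18a encode proteins that sit in the large subunit, 51 genes were counted for the large subunit and 27 for the small subunit. By general knowledge, 46 of the 78 proteins have a bacterial counterpart, 29 are particular to mitochondria and 3 (Mrpl55, Mrps28 and Mrps36) were not classed.

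The mitochondrial ribosome translates the few mRNAs of the mitochondrial genome, which encode subunits of the respiratory chain and of ATP synthase. All of its proteins are encoded in the nucleus, made in the cytosol and imported, and many of their genes have CpG-rich promoters with sites for nuclear respiratory factors, ETS factors and YY1. RARs are nuclear receptors that bind DNA as heterodimers with RXR, classically at direct repeats of the half-site AGGTCA, and retinoic acid (RA) is the ligand of the RARs.

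The mice were wild type C57BL/6 males, 3 months old, and livers were taken after a control diet or a diet with RA. The labels give 1 day of diet, whereas the study's methods give a longer treatment, so the duration is not settled. There was 1 ChIP library for each receptor and diet and no replicate. All values below therefore describe 6 libraries, no test between diets or receptors could be made, and Wilson 95% intervals cover counting error only.

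The lists held 35521 peaks for RARα under control diet, 44296 for RARα under RA, 14968 for RARβ under control diet, 29467 for RARβ under RA, 61128 for RXRα under control diet and 59624 for RXRα under RA. The number of reads behind each list is not known from the lists, and whether a longer list came from a deeper library was not tested. Each peak carries the score of the peak caller, which rises as its p-value falls. Since scores were not normalized between libraries, a peak is described here by the percentile of its score within its own list, where 100 is the highest. A gene was counted as bound when the midpoint of a peak lay within 10 kb or within 1 kb of its start, which is the outermost start of its RefSeq span (GRCm38.p6). Liver tissue holds several cell types, and a peak list from whole liver does not tell in which of them a site was bound.

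Promoter sequences are shown first for the genes on which the results turn, from the RefSeq promoter windows of GRCm38.p6, which run from 250 bases before to 50 bases after a start. Such a window was at hand for 69 of the 78 genes. Capitals mark CCGGAAG (the core recognized by ETS factors), GCGCATGC (nuclear respiratory factor 1), AAGATGGC (YY1) and AGGTCA (the nuclear receptor half-site) on either strand. Mrpl1 encodes a protein of the stalk that guides tRNA out of the ribosome. Together with Mrpl48 and Mrpl55, both of the large subunit, it had the highest mean percentile over the 6 lists among all 78 genes. Their windows are chr5:96209865-96210164, plus strand for Mrpl1, chr7:100608252-100608551, minus strand for Mrpl48 and chr11:59202236-59202535, plus strand for Mrpl55, and none of the marked motifs is in them.

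Mrpl1: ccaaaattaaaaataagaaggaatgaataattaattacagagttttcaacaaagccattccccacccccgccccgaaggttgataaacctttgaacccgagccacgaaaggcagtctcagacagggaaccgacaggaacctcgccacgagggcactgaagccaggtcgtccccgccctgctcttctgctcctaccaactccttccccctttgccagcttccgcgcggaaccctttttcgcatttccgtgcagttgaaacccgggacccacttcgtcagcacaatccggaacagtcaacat

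Mrpl48: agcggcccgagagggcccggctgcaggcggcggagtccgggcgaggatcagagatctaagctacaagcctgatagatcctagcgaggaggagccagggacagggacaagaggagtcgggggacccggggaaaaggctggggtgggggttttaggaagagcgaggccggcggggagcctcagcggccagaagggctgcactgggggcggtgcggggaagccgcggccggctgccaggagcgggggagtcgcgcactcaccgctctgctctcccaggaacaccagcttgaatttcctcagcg

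Mrpl55: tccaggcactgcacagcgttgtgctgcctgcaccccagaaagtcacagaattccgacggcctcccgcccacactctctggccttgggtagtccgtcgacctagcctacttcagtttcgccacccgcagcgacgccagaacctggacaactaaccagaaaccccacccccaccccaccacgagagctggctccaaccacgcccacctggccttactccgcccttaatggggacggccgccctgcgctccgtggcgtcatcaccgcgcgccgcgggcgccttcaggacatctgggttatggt

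The window of Mrpl1 belongs to a start 617 bp inside the outermost one, and its best peak overlapped this window in all 6 lists. The same holds for Mrpl55, whereas the peaks of Mrpl48 lay 674 to 972 bp downstream of its start, past the window printed above, in 6 of 6 lists. Mrpl57 and Mrps35 were the genes with RARα peaks at the start under both diets and no RXRα peak within 10 kb under either diet. The window of Mrpl57 (chr14:57825989-57826288, plus strand) holds CCGGAAG starting at base 5 after the start and, on the minus strand, AGGTCA at base 102 before it. For Mrps35 no sequence is printed.

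Mrpl57: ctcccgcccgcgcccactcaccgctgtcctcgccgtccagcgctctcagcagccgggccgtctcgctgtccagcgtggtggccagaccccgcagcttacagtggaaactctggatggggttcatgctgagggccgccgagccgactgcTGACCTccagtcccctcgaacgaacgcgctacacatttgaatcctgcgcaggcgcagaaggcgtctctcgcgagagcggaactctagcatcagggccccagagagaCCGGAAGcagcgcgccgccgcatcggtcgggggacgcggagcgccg

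A further 3 promoters were chosen after their values were seen. Mrps11, a protein of the small subunit, has its start 42 bp from that of Mrpl46 on the other strand, and the window printed for it (chr7:78782881-78783180, plus strand) contains both starts. It holds AAGATGGC on the minus strand, whereas the window of Mrpl46 itself does not. The window of Mrps27 (chr13:99344536-99344835, plus strand) holds an ETS core and a YY1 motif and was covered by the best peak in 6 of 6 lists. Its mean percentile over the 6 lists, 85.5, was the highest of the small subunit. In each single list, however, another gene of the small subunit ranked above it. The window of Mrpl22 (chr11:58171414-58171713, plus strand) is the only one of the 69 with 3 kinds of marked motif, among them AGGTCA at 2 positions. It lies at a start 1621 bp inside the outermost one and was overlapped by a peak in all 6 lists, at percentiles of 53.2 and 36.7 for RARα, 52.2 and 64.4 for RARβ and 68.2 and 26.7 for RXRα (control diet and RA). The counts within 1 kb of the outermost start miss these peaks.

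Mrps11: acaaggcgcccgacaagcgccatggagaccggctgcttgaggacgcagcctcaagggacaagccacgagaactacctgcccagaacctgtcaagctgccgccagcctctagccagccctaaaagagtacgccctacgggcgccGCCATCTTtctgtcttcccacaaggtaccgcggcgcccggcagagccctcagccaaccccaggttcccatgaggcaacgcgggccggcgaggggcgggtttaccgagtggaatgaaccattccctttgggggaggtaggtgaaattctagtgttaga

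Mrps27: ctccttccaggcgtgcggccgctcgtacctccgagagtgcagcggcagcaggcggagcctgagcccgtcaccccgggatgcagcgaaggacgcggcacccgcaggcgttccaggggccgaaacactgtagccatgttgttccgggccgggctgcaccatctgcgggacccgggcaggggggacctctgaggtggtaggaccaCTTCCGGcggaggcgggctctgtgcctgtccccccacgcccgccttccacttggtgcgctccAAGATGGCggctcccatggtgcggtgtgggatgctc

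Mrpl22: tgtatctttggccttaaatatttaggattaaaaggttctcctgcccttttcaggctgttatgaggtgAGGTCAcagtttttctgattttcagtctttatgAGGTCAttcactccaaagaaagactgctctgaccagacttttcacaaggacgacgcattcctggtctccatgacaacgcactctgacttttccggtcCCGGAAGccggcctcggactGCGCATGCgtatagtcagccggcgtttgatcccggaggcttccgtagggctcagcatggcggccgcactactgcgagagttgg

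Nearly every mitochondrial ribosomal protein gene had a receptor peak within 10 kb. Under control diet RARα had one at 77 of 78, RARβ at 71 and RXRα at 74, against 61.9%, 44.1% and 61.3% of all protein-coding genes. Under RA it was 78, 77 and 75 of 78, against 63.3%, 54.7% and 61.7%. A peak in all 6 lists was found for 66 genes (84.6%), compared with 38.2% of all genes. No gene of the 78 lacked a peak within 10 kb in all 6 lists.

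The peaks were for the most part at the start itself. Within 1 kb, RARα peaks were called at 68 of 78 genes under control diet (87.2%, Wilson interval 78.0 to 92.9) and at 71 under RA (91.0%, 82.6 to 95.6), while 45.9% and 46.2% of all genes had one. RARβ peaks were called at 67 genes under control diet (85.9%, 76.5 to 91.9) and at 71 under RA, against 33.1% and 40.3%. RXRα peaks were called at 65 (83.3%, 73.5 to 89.99) and 67, against 40.1% and 41.9%. The members' share was thus above the share of all genes in each of the 6 lists. In all 6 lists together, 53 genes (67.9%) had a peak within 1 kb, compared with 24.7% of all genes. A peak was absent from every list at 4 members (5.13%), compared with 46.9% of all genes.

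**Figure D1:**
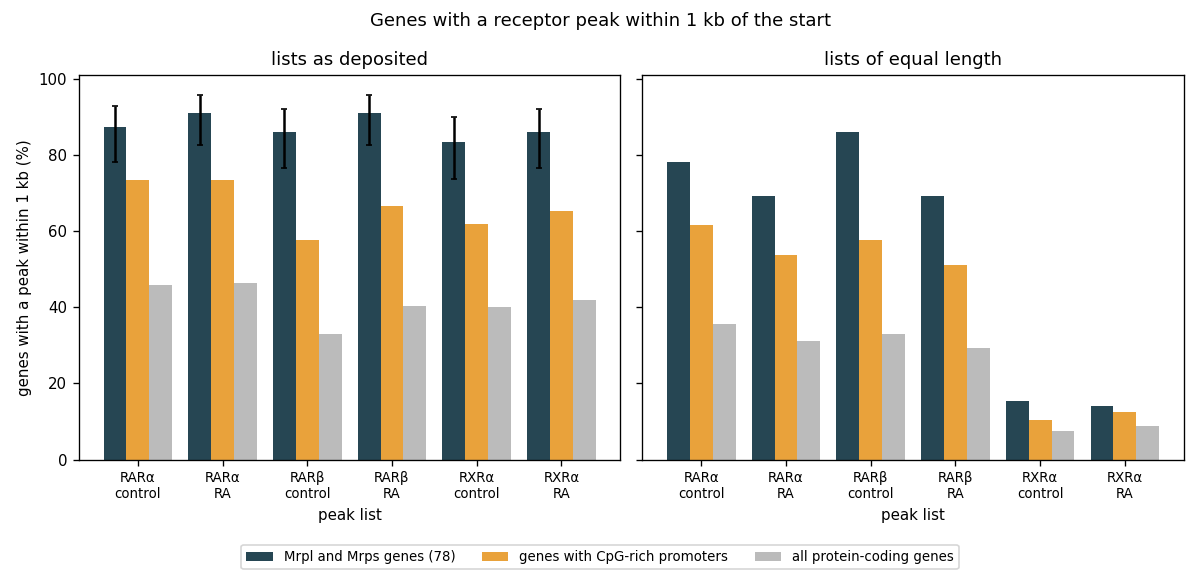
Share of genes with a peak midpoint within 1 kb of the start (y axis, percent) in each of the 6 lists, as deposited (left) and with each list limited to its 14968 highest-scoring peaks (right). Dark bars are the 78 Mrpl and Mrps genes with Wilson 95% intervals on the left, orange bars the 8463 genes with a CpG-rich promoter and grey bars all 21536 protein-coding genes; the dark bars stand between 83.3% and 91.0% on the left, and on the right the RXRα bars drop to 15.4% and 14.1%.

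At list lengths made equal, the counts split by receptor. The 14968 highest-scoring peaks of a list reached 61 of the 78 starts for RARα under control diet, 54 for RARα under RA, 67 for RARβ under control diet and 54 for RARβ under RA. For RXRα they reached only 12 and 11 starts. Among all genes the corresponding shares were 35.6%, 31.1%, 33.1%, 29.3%, 7.60% and 8.70%, so the drop for RXRα was shared by genes at large. Most RXRα peaks at these starts were thus outside the 14968 highest-scoring peaks of their lists. In the full RXRα lists, the best peak was in the lower part, below percentile 50, at 30 of 65 genes under control diet and 23 of 67 under RA.

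By percentile RXRα also stood lowest, with medians near or somewhat above the middle of its lists. The median percentile of the best peak within 1 kb in the RARα lists was 86.1 (control diet) and 84.1 (RA), in the RARβ lists 71.2 and 72.9, and in the RXRα lists 51.3 and 58.6. Over all genes with such a peak the medians were 80.1, 78.6, 70.2, 70.0, 51.5 and 54.1 in the same order. Members stood somewhat above genes at large for RARα and for RXRα under RA, and closer to them in the other lists. Among genes with a CpG-rich promoter (observed over expected CpG of at least 0.6), the RARα medians under control diet were 84.8 for members and 83.7 for all. Under RA they were 82.0 and 81.8, so that little of the RARα gap remained there. For RARβ the medians were 73.5 and 72.7 under control diet and 76.4 and 73.3 under RA. For RXRα they were 51.5 and 50.7, and 58.5 and 54.2, so that the RXRα gap under RA remained. A percentile of 90 or more was reached by the best peak of 24 of 68 genes for RARα under control diet and of 24 of 71 under RA, but only of 3 of 65 and 1 of 67 for RXRα. Among all bound genes 28.1%, 26.6%, 5.73% and 5.42% were at or above it.

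**Figure D2:**
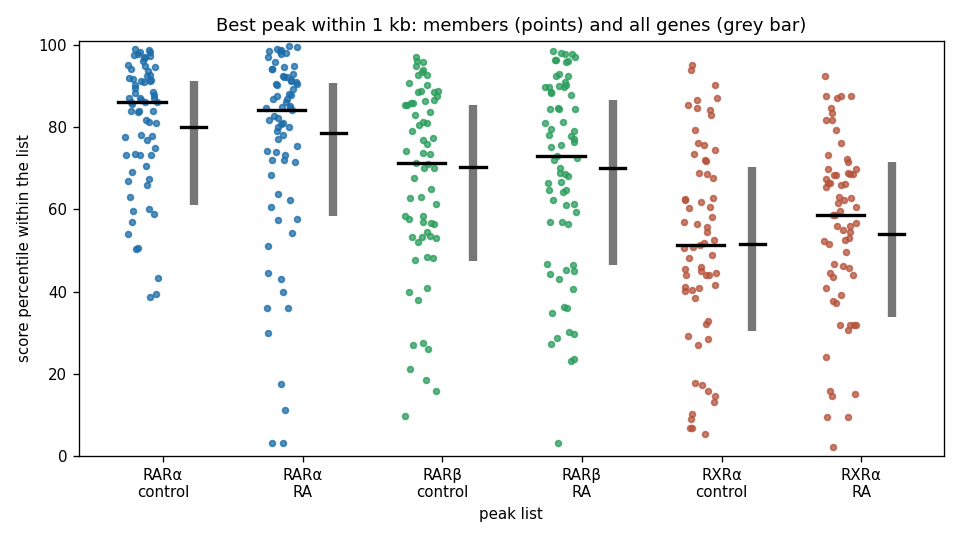
Score percentile within the list (y axis, 100 the highest) of the best peak within 1 kb for each of the Mrpl and Mrps genes (points, with the median as a black line) in the 6 lists. The grey bar beside them spans the quartiles of all bound protein-coding genes, with their median as a line; the members' medians go from 86.1 for RARα under control diet to 51.3 for RXRα under control diet.

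Within the 1 kb window the peaks were centred on the start. The median position of the midpoint was between -27 and 7 bp from the start in the 6 lists. The start itself was covered by the RARα peak at 62 of 68 genes (control diet) and 63 of 71 (RA), by the RARβ peak at 59 of 67 and 65 of 71, and by the RXRα peak at 53 of 65 and 59 of 67. In percent these were 91.2, 88.7, 88.1, 91.5, 81.5 and 88.1, little different from the 89.7, 85.2, 85.6, 90.01, 78.1 and 82.6 of all bound genes. Among the 53 genes with a peak in all 6 lists, the 6 best peaks had a base in common at 51 (96.2%), as at 90.6% of the 5312 genes of all kinds with a peak in all 6.

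**Figure D3:**
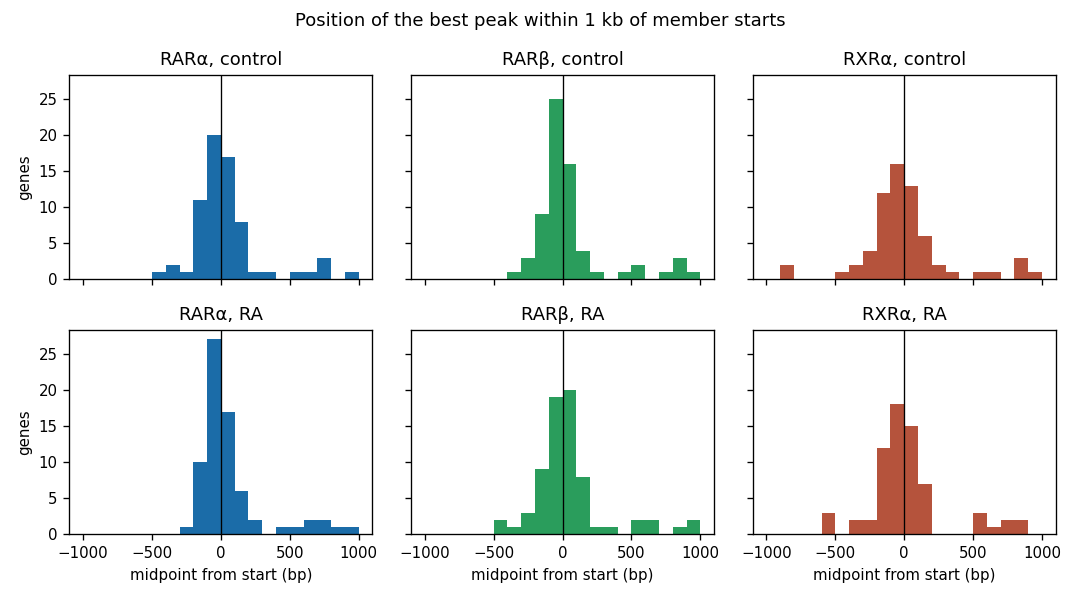
Position of the midpoint of the best peak relative to the gene start (x axis, bp, positive downstream) for the Mrpl and Mrps genes bound within 1 kb, in bins of 100 bp, with the number of genes on the y axis. In each list the midpoints gather around 0, with medians between -27 and 7 bp and a few peaks farther downstream, such as those of Mrpl48.

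When peaks up to 10 kb away were considered, RXRα differed in position. The best RXRα peak within 10 kb lay more than 1 kb from the start for 30 of 74 genes under control diet and for 26 of 75 under RA. Of these, 21 and 18 genes also had a weaker peak at the start. For RARα the best peak was that far away for 17 of 77 and 19 of 78 genes, and for RARβ for 9 of 71 and 16 of 77. Genes at large had such distant best peaks more often, at 56.5% and 53.5% for RXRα and 34.9% and 38.4% for RARα. At 17 of the 30 members for RXRα under control diet, the distant peak was nearest to the start of another gene (56.7%, all genes 26.6%).

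The genes with the highest mean percentile over all 6 lists were Mrpl1, Mrpl48, Mrpl55, Mrpl44 and Mrpl39, all of the large subunit. Mrpl1 had percentiles of 99.0 and 99.6 for RARα, 88.8 and 97.9 for RARβ and 93.8 and 87.5 for RXRα, under control diet and RA in each pair. Its RARα peak under RA was number 191 of the list. Mrpl48 had 98.6 and 98.7 for RARα, 88.5 and 97.7 for RARβ and 86.9 and 87.4 for RXRα. Mrpl1 and Mrpl48 were thus high for all 3 receptors, the RXRα lists included, where the median of the group was near the middle. The start of Rab6a, on the other strand, lies 726 bp from that of Mrpl48. Which of these genes the peaks counted for Mrpl48 belong to was not tested.

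Mrpl55 was high for RXRα as well, with 85.2 and 92.3, which is the highest RXRα percentile of any member under RA. Its RARα percentile was 92.7 under control diet and 77.0 under RA. Mrpl44, which carries an RNase III-like fold, had 96.9 and 99.4 for RARα and 62.3 and 81.8 for RXRα. Mrpl39, particular to the mitochondrial ribosome, had 97.5 and 97.8 for RARα and 76.1 and 71.6 for RXRα. In both genes the RARα peak ranked above the RXRα peak under each diet.

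**Figure D4:**
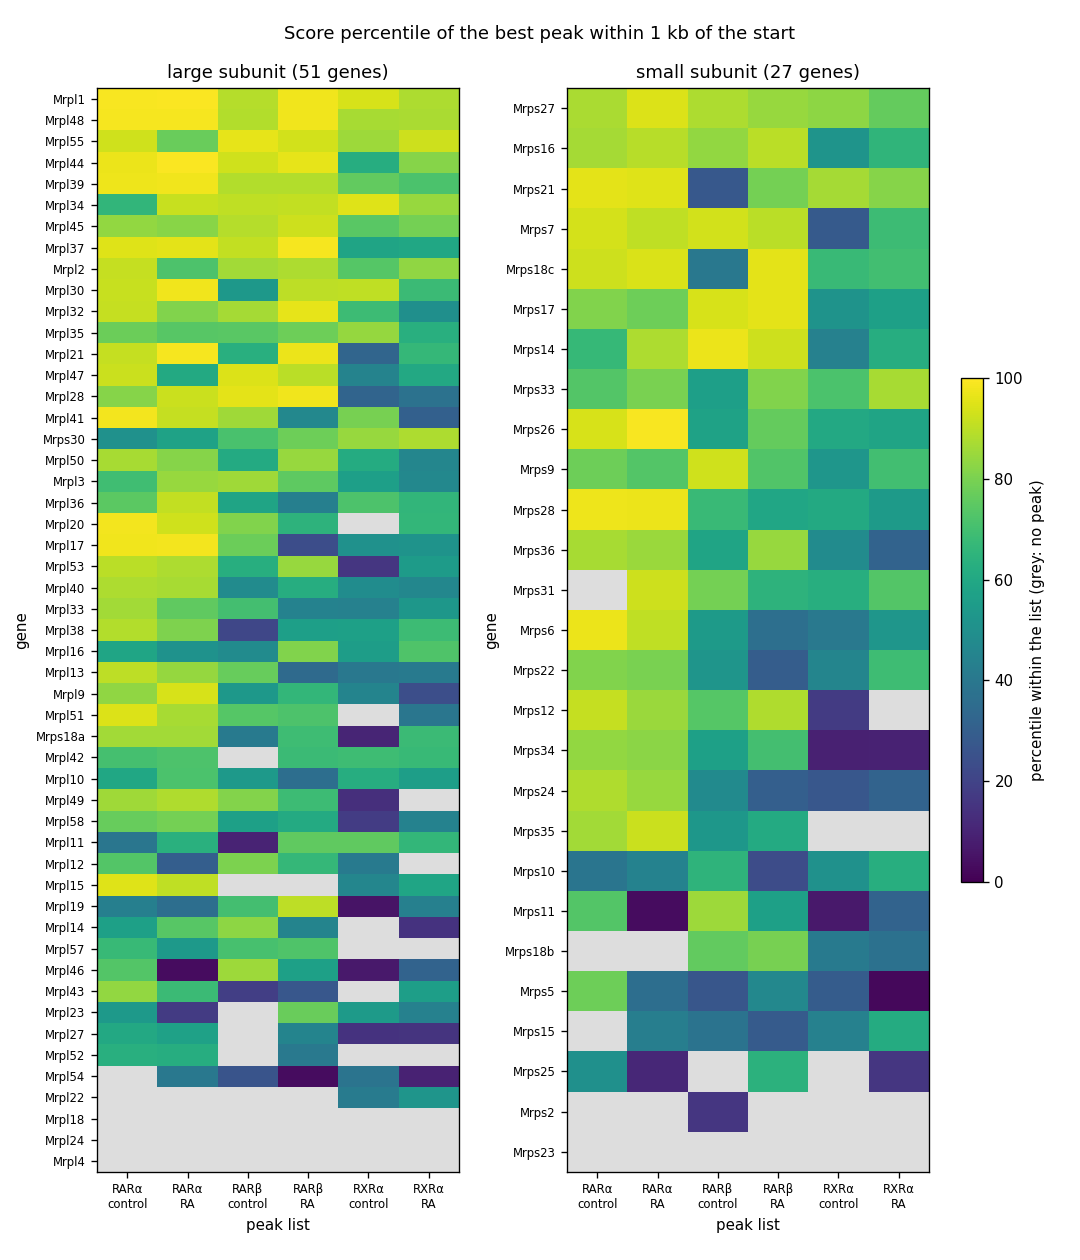
Score percentile of the best peak within 1 kb (colour, 0 to 100, grey where no peak was called) for the 51 genes of the large subunit and the 27 of the small subunit (rows) in the 6 lists (columns), ordered by the mean over the lists with absent peaks counted as 0. Mrpl1, Mrpl48 and Mrpl55 head the large subunit and Mrps27 the small one, the RXRα columns are the darker ones, and Mrpl18, Mrpl24, Mrpl4 and Mrps23 are grey throughout.

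Genes chosen by role showed the same order of receptors with exceptions. Mrps12, a protein of the decoding centre, had RARα percentiles of 91.2 and 84.9, RARβ percentiles of 73.7 and 88.2, and an RXRα peak only under control diet, at 17.4. Mrpl3, near the peptidyl transferase centre, had 69.2 and 84.7 for RARα, 85.9 and 75.1 for RARβ and 56.4 and 46.6 for RXRα. Mrpl12, a protein of the stalk that recruits translation factors, had 73.3 and 30.0 for RARα, 80.5 and 66.7 for RARβ and, under control diet only, 40.9 for RXRα. For these 3 genes RXRα ranked lowest among the 3 receptors under control diet.

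Mrpl58, which encodes a peptidyl-tRNA hydrolase that rescues stalled ribosomes, had 76.8 and 79.0 for RARα and 17.8 and 44.5 for RXRα. Mrps36, whose product is also a subunit of the 2-oxoglutarate dehydrogenase complex, had 87.1 and 85.1 for RARα and 48.3 and 31.9 for RXRα. Mrps30 went the other way, with 50.5 and 57.7 for RARα, 71.2 and 78.0 for RARβ and 84.7 and 87.5 for RXRα. Mrps18a had 86.2 and 86.1 for RARα and 10.4 and 68.3 for RXRα.

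Large and small subunit genes were bound at similar counts. RARα peaks within 1 kb were called at 46 of 51 large subunit genes under control diet and 47 under RA, and at 22 and 24 of 27 small subunit genes. For RARβ the counts were 42 and 46 of 51 and 25 and 25 of 27. The RARβ median percentiles were 75.5 (large) and 58.4 (small) under control diet, and 73.8 and 72.9 under RA. For RXRα the counts were 42 and 44 of 51 and 23 and 23 of 27. At equal list length RXRα reached 10 and 8 of 51 and 2 and 3 of 27. Genes with a bacterial counterpart had RARα peaks at 39 and 40 of 46 starts and RXRα peaks at 40 and 40, and those particular to mitochondria at 26 and 28 of 29 for RARα and 22 and 24 for RXRα. The RXRα count was thus below the RARα count only in the second of these classes, by 4 genes under either diet.

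The 4 genes with no peak within 1 kb of the outermost start in any list were Mrpl18, Mrpl24, Mrpl4 and Mrps23. All had peaks farther away. For Mrpl4, whose bacterial counterpart lines the exit tunnel, the best peak lay 1638 to 1797 bp downstream in all 6 lists, with percentiles of 97.0 and 96.1 for RXRα and 89.1 and 83.3 for RARα. For Mrpl18 the RARα peaks lay 1348 and 1439 bp downstream, at percentiles of 85.3 and 89.1. Where every annotated start of a gene was used, an alternative added after seeing the data, the counts within 1 kb rose to 74, 76, 71, 75, 68 and 71 of 78 (all genes, 49.9%, 50.04%, 35.9%, 43.7%, 43.6% and 45.5%), and of these 4 genes only Mrpl4 lacked a peak in all 6 lists. The remaining genes with few lists were Mrps2, with 1 list, Mrpl22, with 2, and Mrpl52, with 3.

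For RARα and RXRα the design allows a comparison of partner receptors under 1 diet. Peaks of both within 1 kb were found at 60 genes under control diet (76.9%, all genes 35.9%) and 65 under RA (83.3%, all genes 38.1%). Peaks of all 3 receptors were found at 56 genes (71.8%) and 64 genes (82.1%), compared with 27.1% and 34.2% of all genes. Of the 67 RARα peaks at members under control diet, 59 (88.1%) overlapped an RXRα peak over 25% or more of both widths, compared with 75.6% over all genes. Under RA it was 64 of 70 (91.4%), compared with 79.8%. RARβ peaks overlapped RARα peaks at 61 of 66 under control diet (92.4%) and 69 of 70 under RA (98.6%), close to the 93.3% and 93.1% of all genes.

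At Mrps35 and Mrpl57, RARα was called at the start under both diets with no RXRα peak within 10 kb. Mrps35, of the small subunit, had RARα percentiles of 86.1 and 92.1 and RARβ percentiles of 53.1 and 61.2. Mrpl57, of the large subunit, had 67.4 and 54.3 for RARα and 70.9 and 72.5 for RARβ. Within 1 kb, RARα was called without RXRα at 8 genes under control diet (10.3%, all genes 10.01%) and at 6 under RA (7.69%, all genes 8.11%), among them Mrpl52 under both. The reverse within 1 kb under both diets was found at Mrpl22, with RXRα percentiles of 41.6 and 52.2, and at Mrps18b, with 41.1 and 37.3; both had RARα peaks farther away.

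Between the diets most genes kept their peak. RARα peaks were called under both diets at 68 genes, under control diet alone at 0 and under RA alone at 3 (3.85%, all genes 2.93%). For RARβ the counts were 66, 1 and 5 (6.41%, all genes 9.89%), and for RXRα 62, 3 and 5 (6.41%, all genes 5.44%). Control diet alone held 2.64%, 2.64% and 3.67% of all genes for RARα, RARβ and RXRα. These shares are over genes with or without a peak. No peak under either diet was called at 51.1%, 57.1% and 54.4% of all genes, compared with 8.97%, 7.69% and 10.3% of members. Among genes with a peak under either diet, a call under 1 diet alone was thus less frequent in members for each receptor. The balance turned at equal list length, an alternative added after seeing the data. Of the 14968 highest-scoring peaks, RARα then reached 52 genes under both diets, 9 under control diet alone and 2 under RA alone. RARβ reached 51, 16 and 3, and RXRα 7, 5 and 4. At that length, 29.1% of all genes had RARα peaks under both diets, 24.96% RARβ peaks and 5.81% RXRα peaks. In the full lists these shares of all genes were 43.3%, 30.4% and 36.5%. Each distinct best control peak at members was also compared with every RA peak of the same receptor. An overlap of 25% or more of both widths was found for 67 of 67 RARα peaks. For RARβ it was 64 of 66 (97.0%) and for RXRα 60 of 64 (93.8%). Over all genes it was 93.6%, 89.9% and 89.4%.

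The genes with a RARα peak under RA alone were Mrps31, at a percentile of 92.5, Mrps15, at 43.0, and Mrpl54, at 40.0. The RARα peak of Mrps31 was not absent under control diet. It overlapped a control peak at a percentile of 77.9, whose midpoint lay 1014 bp from the start against 934 bp under RA, so that the limit of 1 kb set this call. The peaks of Mrps15 and Mrpl54 under RA overlapped no control peak. RARβ peaks under RA alone were called at Mrpl23 (77.0), Mrpl42 (68.2), Mrps25 (64.2), Mrpl27 (45.2) and Mrpl52 (40.6), and under control diet alone at Mrps2 (15.9). The RARβ list under control diet was the shortest of the 6, and at equal list length Mrpl23, Mrpl42 and Mrps25 still had a RARβ peak under RA alone, whereas Mrpl27 and Mrpl52 did not. RXRα peaks under RA alone were called at Mrpl20 (66.1), Mrpl43 (55.9), Mrpl51 (39.3), Mrps25 (16.0) and Mrpl14 (14.8), and under control diet alone at Mrpl12 (40.9), Mrps12 (17.4) and Mrpl49 (13.3). At all 8 of these RXRα genes RARα was called under both diets, with Mrpl20 at 98.3 and 92.8.

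Ranks moved between the diets in both directions. RARα had a median difference of RA minus control percentile of -1.17 (all genes -0.608), RARβ one of 2.01 (2.87) and RXRα one of 2.49 (2.37). The percentile was higher under RA at 28 of 68 genes for RARα (41.2%, all genes 46.3%), 37 of 66 for RARβ (56.1%, 60.8%) and 38 of 62 for RXRα (61.3%, 57.5%). These medians and shares were near those of genes at large. At equal list length the median differences were -9.30, -9.97 and -17.9, the last over 7 genes, so the sign for RARβ and RXRα turned. Over all genes they were then -5.44, -7.08 and 1.11, so there the sign turned for RARβ only. For RARα the largest falls were at Mrps11 and Mrpl46, which share their promoter and their peaks, from 73.2 under control diet to 3.24 under RA. The largest rises were at Mrpl34, from 65.9 to 91.5, and at Mrpl11, a protein of the stalk base, from 39.3 to 63.6.

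For RARβ, Mrpl11 rose from 9.86 to 75.6 and Mrps18c from 40.0 to 95.8, while Mrpl17 fell from 77.4 to 23.6 and Mrpl13 from 76.8 to 34.7. Mrpl11 was thus among the largest rises of both RARs, whereas its RXRα percentile was 75.6 under control diet and 66.4 under RA. For RXRα, Mrps18a went from 10.4 to 68.3 and Mrps7, a protein of the head of the small subunit, from 28.5 to 68.6. Mrpl54 went from 38.3 to 9.53. Mrpl41 went from 79.4 to 30.6, but its best peaks within 1 kb under the 2 diets were different ones. The control peak at -848 bp overlapped an RA peak at -1030 bp with a percentile of 67.4, just outside the window, and the RA peak at -85 bp overlapped a control peak with a percentile of 41.7.

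**Figure D5:**
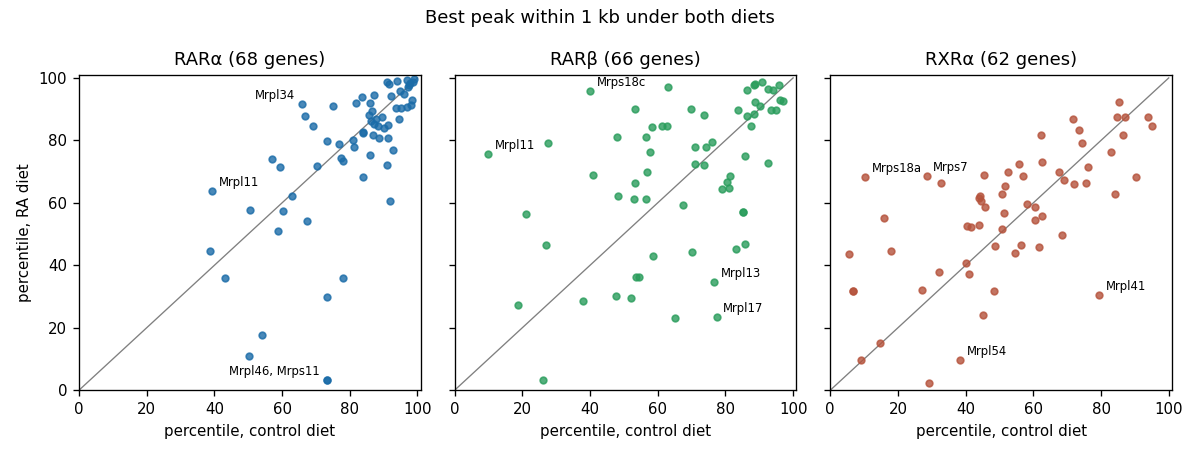
Score percentile of the best peak within 1 kb under RA (y axis) against control diet (x axis) for the genes with a peak under both diets, with 68 genes in the RARα panel, 66 in the RARβ panel and 62 in the RXRα panel; the line marks equal percentiles. The named points are the 2 genes with the largest rise and the 2 with the largest fall for each receptor, such as Mrps11 and Mrpl46 for RARα, from 73.2 to 3.24.

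The genes share features of their promoters that the choice by symbol did not use. Another protein-coding start lay within 1 kb at 33 of the 78 genes (42.3%), compared with 11.2% of all genes, and in 32 of these on the other strand. Several of the partners also encode mitochondrial proteins. Mrps12 lies 136 bp from Sars2 (mitochondrial seryl-tRNA synthetase), Mrpl36 lies 21 bp from Ndufs6 and Mrpl47 lies 302 bp from Ndufb5 (both subunits of complex I). Mrpl43 lies 779 bp from Twnk (the mitochondrial DNA helicase) and Mrps27 lies 89 bp from Ptcd2.

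A peak between such starts counts for both genes. At the 33 members with another start, RARα peaks within 1 kb were called at 90.9% under control diet and 93.9% under RA (all genes with another start, 87.6% and 88.3%), RARβ peaks at 97.0% under either diet (73.9% and 83.9%) and RXRα peaks at 84.8% and 87.9% (75.5% and 79.4%). At the 45 without one, RARα peaks were called at 84.4% and 88.9%, RARβ peaks at 77.8% and 86.7% and RXRα peaks at 82.2% and 84.4%. All genes without another start had 40.7%, 40.9%, 27.9%, 34.8%, 35.7% and 37.2%. The gap between members and genes at large was thus wide where no second gene start was near, and small for RARα where one was.

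The promoters were rich in CpG. The ratio of observed to expected CpG had a median of 0.818 over the 69 promoters, compared with 0.577 over 17486 promoters of all genes, and was at least 0.6 in 64 of the 69 (92.8%), compared with 48.4%. Among genes above that limit, peaks within 1 kb were called for RARα at 87.5% and 90.6% of members and 73.4% and 73.3% of all 8463 genes. For RARβ the shares were 85.9% and 92.2% of members and 57.7% and 66.5% of all, and for RXRα 84.4% and 85.9% of members and 61.8% and 65.3% of all. Against genes with CpG-rich promoters the members' share was higher by a smaller margin than against all genes. The part of CpG content or of open chromatin in these counts was not tested, since no input peak list or accessibility data were used here.

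Motifs were sought in the same 300 bases on both strands. The ETS core CCGGAAG was in 24 member promoters (34.8%, all promoters 11.9%), the YY1 motif AAGATGGC in 12 (17.4%, all 3.21%) and the nuclear respiratory factor motif GCGCATGC in 8 (11.6%, all 3.61%). The half-site AGGTCA was in 11 (15.9%), close to the 14.5% of all promoters, and its direct repeats with 1, 2 or 5 bases between were in 0 member promoters and in 9, 0 and 1 of all 17486. The GC box GGGCGG was in 34 (49.3%, all 46.3%), CCAAT in 27 (39.1%, all 39.2%) and TATAAA in 4 (5.80%, all 13.3%). Letters absent from these 300 bases may lie elsewhere under the peaks, which were a median of 591 to 884 bp wide.

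Promoters with and without a half-site were then set side by side. RARα peaks within 1 kb were called at 9 of 11 with it and 52 of 58 without it under control diet, with median percentiles of 81.1 and 86.1, and at 10 and 53 under RA, with 64.5 and 84.9. For RARβ the counts were 10 and 50 (medians 60.6 and 78.2) and 10 and 54 (69.6 and 76.7). For RXRα they were 9 and 49 (44.6 and 54.5) and 9 and 51 (61.5 and 59.6). The median with a half-site was the lower one in 5 of the 6 lists, in a comparison of 11 promoters that was not tested. For 2 of the 11, Mrpl22 and Mrpl36, the promoter window lies more than 1 kb from the outermost start, where these peaks were counted. At the 12 promoters with a YY1 motif, RARα peaks were called at 12 of 12 under either diet, compared with 49 and 51 of 57 without one. RXRα peaks were called there at 12 and 10, compared with 46 and 50 of 57. With the ETS core, RARα peaks were called at 20 of 24 under either diet, compared with 41 and 43 of 45 without it. With the nuclear respiratory factor motif it was 6 of 8 under either diet, compared with 55 and 57 of 61. These differences were not tested.

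Other genes of mitochondrial translation also had peaks at the start more often than genes at large. Of all genes, 45.9% and 46.2% had a RARα peak within 1 kb under control diet and RA. For RARβ it was 33.1% and 40.3%, and for RXRα 40.1% and 41.9%. Within 1 kb under control diet, RARα peaks were called at 5 of 5 further proteins of the mitochondrial ribosome (Dap3, Ptcd3, Chchd1, Gadd45gip1 and Aurkaip1) and RXRα peaks also at 5 of 5, with 4 and 5 of 5 under RA, and RARβ peaks at 3 under control diet and 5 under RA. At the 17 mitochondrial aminoacyl-tRNA synthetases, which charge the tRNAs, peaks were called at 14, 14, 12, 13, 12 and 11 starts in the order of the lists given at the outset. In percent these were 82.4, 82.4, 70.6, 76.5, 70.6 and 64.7, below the share of the Mrpl and Mrps genes in each list. At 10 mitochondrial translation factors the counts were 8, 9, 7, 9, 9 and 8. At 17 genes of ribosome assembly and mitochondrial transcription they were 16, 17, 16, 16, 17 and 16, above the share of the Mrpl and Mrps genes in each list. At equal list length, RXRα reached 2 of the 5 further ribosomal proteins under either diet. It reached 0 of the synthetases, 2 of the translation factors and 1 of the assembly and transcription genes (all genes, 7.60% and 8.70%). Tfam, which packages and transcribes mitochondrial DNA, had RARα percentiles of 89.6 and 72.8 and RXRα percentiles of 37.1 and 51.0.

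Frequent peaks at the start were also found in the most similar groups outside mitochondrial translation. The 49 Nduf genes, which encode subunits of complex I, had peaks at 46, 48, 43, 43, 42 and 45 starts in that order. In percent these were 93.9, 98.0, 87.8, 87.8, 85.7 and 91.8. The 97 genes of cytosolic ribosomal proteins had peaks at 78, 79, 66, 73, 66 and 72 starts. Their shares were 80.4%, 81.4%, 68.0%, 75.3%, 68.0% and 74.2%, and those of all genes 45.9%, 46.2%, 33.1%, 40.3%, 40.1% and 41.9%. Differences between these groups and the Mrpl and Mrps genes were not tested.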

How the data were processed

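Chromatin immunoprecipitation of RARα, RARβ and RXRα from mouse liver gave 1 library per receptor and diet, and an input library without a peak list here. The authors aligned reads with Bowtie and called peaks with MACS, and deposited 1 peak list per library. The deposited score of a peak is the caller's own, was not normalized between libraries, and was used only to rank and filter peaks within a list. Read depth is not in the lists. As a check of the build, peaks on chromosome Y reach 90842021, past the 15902555 bp it has in NCBIM37, so gene spans and promoters of RefSeq GRCm38.p6 were used.

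Strands came from the RefSeq promoter table (17492 genes) or, by name only, from GENCODE M1 (4044); 351 of 21887 protein-coding genes had none and were left out. A peak was assigned by its midpoint, and the best peak of a gene is the highest-scoring in the window. Assignment recovered the peaks of simulated lists. Percentiles are midranks. With 1 library per group there is no test. The members and the gene lists (subunits, further ribosomal proteins, aminoacyl-tRNA synthetases, translation factors, assembly and transcription, Nduf, cytosolic ribosomal) were chosen with earlier results of these data known.

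Named were the 5 genes with the highest mean percentile, up to 5 per receptor with a peak under 1 diet only, genes without any peak within 10 kb (none), genes with RARα but not RXRα peaks or the reverse, the 2 largest rises and falls per receptor, and 7 by role; other genes were named after their values were seen. Alternatives were a score of at least 100, lists of equal length, any base in the window, the nearest start only, other windows and other overlaps. Python 3.11.15, numpy 2.4.6, pandas 2.3.3, scipy 1.17.1 and matplotlib 3.10.9 were used.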

Additional observations from a re-analysis of the deposited data

Results flagged for a closer look

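The move of ranks between the diets differed in sign among the receptors. The median percentile of the best peak within 1 kb changed from control diet to RA by -2.017 for RARα, 1.732 for RARβ and 7.339 for RXRα, over the genes bound in each list. Over the genes bound under both diets, the median of the differences was -1.175, 2.013 and 2.488. The difference between the receptors was not tested, because each rests on 1 library per diet, and over all genes the medians of the same differences had the same signs. At equal list length, the median percentile changed by -5.478, -9.926 and 0.4476. The median of the differences was then -9.305, -9.968 and -17.87 (all genes, -5.437, -7.078 and 1.112). The sign for RARβ, and that of the differences for RXRα, thus turned with list length. Over all genes the sign of the differences turned for RARβ only.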

How the results depend on the processing

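With 1 library per receptor and diet, no library could be left out and no spread between animals is known. No paired analysis was possible because no group has a second library. Counting any base of a peak in the window, only the nearest start, or any annotated start (an alternative chosen after seeing the data) kept the counts within 1.5 times. With only the nearest start, the counts within 1 kb fell to 50, 55, 51, 57, 54 and 53 in the order of the lists given at the outset. The share of all genes was not computed for that setting. A score of at least 100 lowered RARβ under control diet to 41 genes within 10 kb and 37 within 1 kb (all genes, 22.5% and 17.4%). It lowered both diets for RARβ to 32 and RARβ with RARα under control diet to 34. RARβ with RXRα fell to 26 under control diet and 43 under RA. At equal list length, RXRα reached 23 and 22 genes within 10 kb (all genes, 20.6% and 21.4%). It reached 12 and 11 within 1 kb (7.60% and 8.70%) and 7 under both diets (5.81%). RARα with RXRα then fell to 10 under either diet, RARβ with RXRα to 12 and 11, and RARβ with RARα under RA to 42. Members under control diet alone numbered 9, 16 and 5 for RARα, RARβ and RXRα (all genes, 6.52%, 8.10% and 1.79%). Under RA alone RARβ had 3 (4.34%). The median difference of RA minus control was -9.305, and it reversed to -9.968 for RARβ and -17.87 for RXRα; the change of the median percentile was -5.478 for RARα, reversed to -9.926 for RARβ and was 0.4476 for RXRα (both added after seeing the data). Median percentiles were then 69.11 and 63.63 for RARα, 61.25 for RARβ under RA and 38.63 and 39.08 for RXRα. With the best peak within 10 kb, RXRα rose to 62.19 and 67.39. With 1 shared base, 100% of RARβ peaks under RA overlapped RARα. At 50% of each width, shared peaks were 89.39% (RARβ diets), 81.25% (RXRα diets), 77.27% and 91.43% (RARβ in RARα, control and RA), and 74.63% and 81.43% (RARα in RXRα). The cause of these moves was not tested beyond the fewer peaks left.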
